A study of Mus musculus with 4 samples.

Results

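Iapp, Atp4b, Tmem45b and D130050E23Rik are 4 genes whose array signal was lower in the salivary glands (SGs) of Myd88-/- mice than in those of Myd88+/+ mice, among 22312 genes tested and 34844 gene names on the array. They were chosen by their lower log2 signal in these same 4 arrays, so their differences between genotypes are given here as a description and carry no test. Each gene is represented by 1 probe, and the 4 probes are among 55681. By the labels, RNA came from the submandibular plus the sublingual gland (the study's text names submandibular glands for its arrays) of female C57/BL6 mice at 10 weeks of age, and 4 one-colour Agilent whole mouse genome arrays carry it: 2 labelled Myd88-KO with the genotype Myd88-null, called Myd88-/- here, and 2 labelled Wildtype, called Myd88+/+ here. MyD88 is the adaptor that carries signals from Toll-like receptors and interleukin-1 family receptors. The mice came from heterozygous parents, no agent is named for either genotype, and no restriction of the null allele to a cell type is described. The labels do not say whether an array holds 1 animal or a pool. The spread between arrays of a genotype may therefore be partly technical.

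The 4 genes have no common role. Iapp encodes amylin, a peptide hormone of the calcitonin family that pancreatic beta cells store and release together with insulin. Amylin acts on the calcitonin receptor paired with a receptor activity-modifying protein (Ramp). Atp4b encodes the beta subunit of the gastric H,K-ATPase, the proton pump with which parietal cells acidify the stomach, and this glycoprotein carries the catalytic alpha subunit Atp4a to the membrane. Tmem45b encodes a membrane protein with several membrane-spanning segments, related to Tmem45a. D130050E23Rik is a RIKEN cDNA name attached to a predicted transcript and is given no function here.

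What the array read of each gene is 1 stretch of 60 bases, and the last 30 of them are shown because the whole account of a gene rests on that single probe. Capitals mark AATAAA or ATTAAA, the hexamers best known as polyadenylation signals, searched on the strand as written.
Iapp: aagtttaacAATAAAgaagaccatgggatg
Atp4b: aaactatATTAAAgttattcttattctgtg
Tmem45b: ctgaattacactaggaagcgaccatgtgga
D130050E23Rik: agacttatgtttttgtactttgatgttaga
The Iapp and Atp4b probes held a hexamer, with 15 and 17 bases after it, and the other two probes held none. Of all 55681 probes, 10.7% held either hexamer in their last 30 bases. The share of G and C over the 60 bases was 45% for Tmem45b and 35% for each of the other 3, against a median of 43.3% over all probes. In the build of the files (mm9), the Iapp probe (NM_010491, transcript position 630) lies at chr6:142252275-142252334 on the plus strand. The Atp4b probe (NM_009724, position 1264) lies at chr8:13386212-13386271 on the minus strand. The Tmem45b probe (NM_144936, position 1316) lies at chr9:31233980-31234039, also on the minus strand. The D130050E23Rik probe (XM_003085441, position 4092) lies at chr5:90188834-90188893, again on the minus strand. Each probe covers 60 unbroken bases of the genome and so does not cross an intron. Whether these bases are coding or untranslated was not read, as no annotation of that build was used.

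Of the 4 genes, Iapp was the one with a promoter entry in the RefSeq table used (GRCm38.p6). The 250 bases before its start, chr6:142298175-142298424 on the plus strand of that build, are shown with capitals for TAAT on either strand, the core bound by homeodomain factors such as the beta cell regulators Pdx1 and Nkx6-1.
Iapp promoter: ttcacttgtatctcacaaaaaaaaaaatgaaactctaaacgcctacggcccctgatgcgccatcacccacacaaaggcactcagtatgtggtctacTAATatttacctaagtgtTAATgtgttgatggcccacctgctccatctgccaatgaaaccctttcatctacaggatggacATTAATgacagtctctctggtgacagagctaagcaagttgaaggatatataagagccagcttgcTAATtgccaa
TAAT occurred 5 times, beginning 154, 136, 74, 72 and 10 bases before the start, and the matches at 74 and 72 overlap on opposite strands. At least 1 match was present in 54.9% of 32851 promoters of the same length. A kappaB pattern of 3 Gs, any 2 bases, 3 Ts and 2 Cs, 1 of the forms bound by NF-kB, the factor that MyD88 signaling activates, had no match in the Iapp window and was present in 1.41% of all windows. It is narrower than the full kappaB consensus, which was not searched. TGANTCA, bound by AP-1, had no match either and was present in 6.75%. The exact letters TATAAA, 1 of several spellings of the TATA box, had no match and were present in 12.4% of all windows, and other spellings were not searched. All motifs were searched on both strands.

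The signal of a probe is given as the log2 of its processed intensity minus the 75th percentile of its array, so that 0 stands for a spot at that percentile. The arrays differed in how much they measured. The 75th percentile ranged from 237 to 321 intensity units, and 52.2% and 68.4% of probes were well above background on the Myd88-/- arrays, against 74.2% and 55.1% on the Myd88+/+ arrays. The scanner software replaces a very dim spot by a surrogate value, and it did so for 28.1% and 10.6% of spots on the Myd88-/- arrays and 8.77% and 25.7% on the Myd88+/+ arrays. No spot was saturated, the 4 arrays share 1 slide and 1 scan, and correlations between arrays ran from 0.972 to 0.989 over the genes tested. The Myd88 probe itself was not lower on the Myd88-/- arrays (log2 signals 1.51 and 1.41 against 1.15 and 1.07), and whether it lies in the deleted segment is not given in the sources used here. The genotype of an array thus rests on its label.

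Iapp gave log2 signals of -6.11 and -6.16 on the Myd88-/- arrays and of -3.18 and -2.97 on the Myd88+/+ arrays. Both wild-type arrays held the probe well above background and neither knockout array did, so the genotypes did not overlap. Over all tested genes, non-overlap was common, at 18.7% with the knockout lower and 33.2% with the knockout higher, while detection on both Myd88+/+ arrays and on neither Myd88-/- array occurred for 385 genes, 1.73%. The group means were -6.13 ± 0.04 and -3.07 ± 0.15 (SD, n = 2), a difference of -3.06. Since both knockout values are surrogates, this difference is nominal. Measured against the dimmest signals that counted as well above background on the Myd88-/- arrays, Iapp was 1.90-fold lower. That floor fold sets the mean wild-type signal against, on each knockout array, the higher of the lowest well-above-background signal and the probe's own signal. The floor fold is not a strict lower bound, since spots not well above background can exceed that lowest signal. On Myd88-/- array 1 the gastrin gene Gast did so, at -3.89 against -3.97.

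Atp4b stood at -6.24 and -6.30 on the Myd88-/- arrays and at -3.00 and -2.64 on the Myd88+/+ arrays. As for Iapp, the probe was well above background on both wild-type arrays and on neither knockout array, and both knockout values are surrogates. The means were -6.27 ± 0.04 and -2.82 ± 0.26 (SD, n = 2), a nominal difference of -3.45, and the floor fold was 2.27. The wild-type arrays differed from each other by more for Atp4b than for the other 3 genes.

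Tmem45b was the gene of the 4 that all arrays measured. Its log2 signals were -1.19 and -1.14 on the Myd88-/- arrays and 0.46 and 0.49 on the Myd88+/+ arrays, all well above background. The means were -1.17 ± 0.04 and 0.48 ± 0.02 (SD, n = 2), so the signal was 3.12-fold lower (log2 difference -1.64). In processed intensity the arrays read 112 and 108 against 442 and 378. Tmem45b signal was therefore lower but still present in the knockout glands, and the word lost, by which the 4 genes had been grouped, does not describe it.

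D130050E23Rik gave -6.08 and -5.94 on the Myd88-/- arrays and -4.07 and -4.02 on the Myd88+/+ arrays. It too was well above background on both wild-type arrays and on neither knockout array, and the value of Myd88-/- array 1 is a surrogate. The means were -6.01 ± 0.10 and -4.04 ± 0.03 (SD, n = 2), a nominal difference of -1.97. The wild-type mean lay below -4.00, the mean of the dimmest signals counted as well above background on the Myd88-/- arrays, so that no fold can be given for this gene. In bulk tissue, fewer cells that express a gene and less RNA per cell cannot be told apart, for this gene and the others alike.

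**Figure D1:**
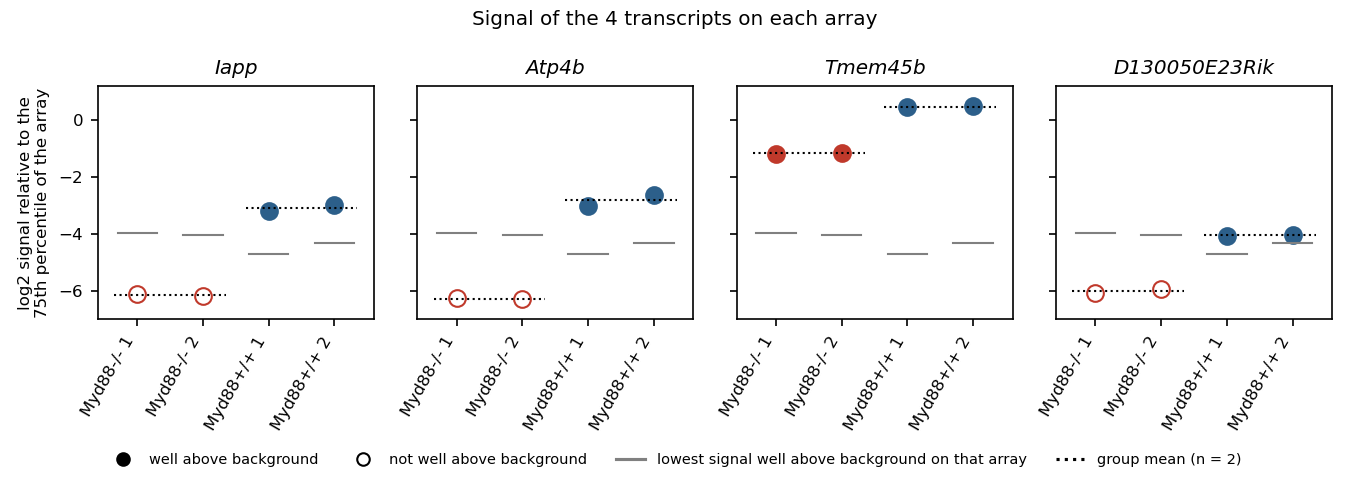
Log2 signal relative to each array's 75th percentile (y axis) of the 4 genes on the 2 Myd88-KO and the 2 Wildtype arrays (x axis), with filled points well above background and open points not, dotted lines at the group means and grey lines at the dimmest signal each array counted as well above background. Only Tmem45b is filled on all 4 arrays, at -1.19 and -1.14 against 0.46 and 0.49, and the knockout points of Iapp, Atp4b and D130050E23Rik are open and near -6.

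Because 5 of the 6 knockout values of Iapp, Atp4b and D130050E23Rik are surrogates, the uncorrected brightness of the spots was read as well, as the mean of the spot minus its local background. The same reading over 308 negative control spots, which match no transcript, had medians of -1.72 and 1.69 intensity units on the Myd88-/- arrays and of -1.76 and -2.71 on the Myd88+/+ arrays, with 95th percentiles of 4.06, 8.14, 4.38 and 1.70. The Iapp spot read -2.39 and 8.48 units on the Myd88-/- arrays and 35.3 and 31.7 on the Myd88+/+ arrays. The Myd88-/- array 1 spot was brighter than 42.5% of negative control spots and the array 2 spot brighter than 95.5%. Both wild-type spots were brighter than all of them. The Atp4b spot read 1.47 and 9.31 units against 44.6 and 43.8, brighter than 82.1% and 97.1% of negative controls on the knockout arrays and than 100% on both wild-type arrays. For these genes, then, the wild-type spots stood above every control spot while the knockout spots lay within or at the upper edge of them.

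For D130050E23Rik the separation was small. Its spot read 3.17 and 9.23 units on the Myd88-/- arrays and 16.7 and 9.92 on the Myd88+/+ arrays, so that Myd88-/- array 2 and Myd88+/+ array 2 differed by less than 1 unit before correction. Against the negative controls of their own arrays these spots were brighter than 93.2% and 97.1% and than 99.7% and 100%. Tmem45b read 106 and 103 units against 420 and 352, far outside the control spots on every array.

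**Figure D2:**
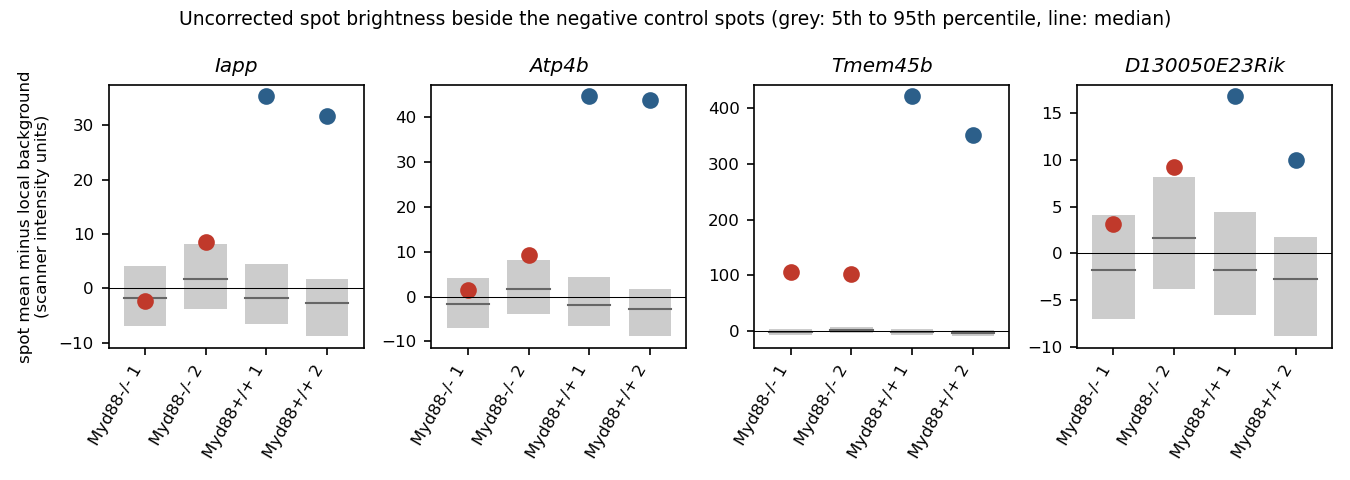
Spot mean minus local background in intensity units (y axis) of each gene on each array (x axis), with the span from the 5th to the 95th percentile of 308 negative control spots as grey bars and their median as a line, on a y axis scaled to each gene. The wild-type spots of Iapp and Atp4b lie between 31.7 and 44.6 units, well above the bars, while those of D130050E23Rik are at 16.7 and 9.92, the lower of them close to the 9.23 units of Myd88-/- array 2.

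The way dim spots are treated therefore set the size of 3 of the 4 differences. With normexp background correction, which models the background and then adds an offset of 50 to every spot, the log2 difference of Iapp went from -3.06 to -0.42, that of Atp4b from -3.45 to -0.52 and that of D130050E23Rik from -1.97 to 0.0094, where its direction turned. Tmem45b stood at -1.26. The order of the genes turned with it, since Atp4b had the lowest value on processed signals and Tmem45b the lowest with normexp. With a smaller offset of 10, Iapp stood at -1.14, Atp4b at -1.24, Tmem45b at -1.50 and D130050E23Rik at -0.23.

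Among all 22312 genes, whose median difference was 0.06, 92 genes including Iapp lay as low as Iapp or lower, and 66 lay as low as Atp4b or lower. More than 2-fold lower, without regard to detection, were 3.42% of all genes. The corresponding ranks were 375 for Tmem45b and 266 for D130050E23Rik. Among the 20494 genes well above background on all 4 arrays, where no surrogate enters, 362 (1.62%) were more than 2-fold lower, and Tmem45b was 1 of 148 at or below its own value. The 385 genes detected in wild-type glands only had a median difference of -1.14, and 47 of them were as low as Iapp and 32 as low as Atp4b. The reverse class, detected on both Myd88-/- arrays and neither Myd88+/+ array, held 40 genes (0.179%). No gene passed the adjusted threshold in either direction (0%, limma with Benjamini-Hochberg adjustment), and at an unadjusted p under 0.05 the knockout was lower for 1525 genes (6.83%) and higher for 2190 (9.82%). That split turned with scaling, to 755 lower and 240 higher with median scaling and 2199 lower and 1615 higher with cyclic loess.

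**Figure D3:**
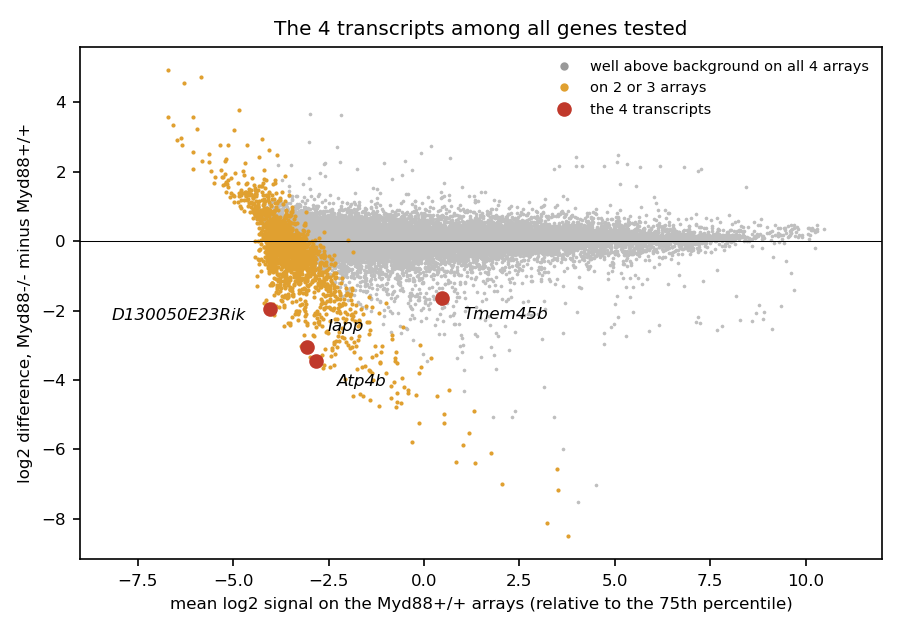
Log2 difference, Myd88-KO minus Wildtype (y axis), of the 22312 genes tested against their mean log2 signal on the Wildtype arrays (x axis), with the 20494 genes well above background on all 4 arrays in grey, the others in orange and the 4 genes in red. Iapp, Atp4b and D130050E23Rik sit at the dim end among the orange points, and Tmem45b sits apart among genes measured on all arrays, at a difference of -1.64.

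The partners of these genes were then read, with the 4 genes themselves left out of every count. In the calcitonin family, 6 of 10 other genes were tested. In the knockout 1 was lower and 5 higher, against 40.4% lower and 59.6% higher of all genes. Their median difference was 0.22 against 0.06 over all genes, and none passed the adjusted threshold. Among the ligands, Adm, which encodes the vasodilator adrenomedullin, differed by 0.28 (SE 0.12) and Adm2, its paralog, by 0.69 (SE 0.48), which ranged from 0.16 to 1.22 with an array left out. Calca, the gene of calcitonin and the calcitonin gene-related peptide CGRP, was well above background on 1 array of each genotype and was not tested, and Calcb, which encodes a further CGRP, was well above background on none. Of the receptors, Calcr, to which amylin binds, was not tested, and Calcrl, the receptor of adrenomedullin and CGRP, was above background on no array. The accessory proteins Ramp1 and Ramp3, which turn Calcr into an amylin receptor, differed by 0.09 and 0.16. Ramp2, which pairs with Calcrl for adrenomedullin, differed by -0.39 (SE 0.12, limma adjusted p = 0.273), and Crcp, a CGRP receptor component, by 0.41 (limma adjusted p = 0.253). These were the 2 of 6 family genes at an unadjusted p under 0.05, against 6.83% lower and 9.82% higher of all genes. The gene of the core amylin receptor was thus not measured well enough to set beside Iapp.

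The catalytic partner of Atp4b differed the other way. Atp4a gave -3.04 and -3.13 on the Myd88-/- arrays and -3.54 and -4.07 on the Myd88+/+ arrays, well above background on all 4. The arrays did not overlap, which with the knockout higher held for 33.2% of all tested genes. The difference was 0.72 (SE 0.22), which did not pass the adjusted threshold (limma adjusted p = 0.264), and 0.38 with normexp (offset 50). Of 14 other H,K-ATPase and Na,K-ATPase subunit genes considered, 9 were tested. Of these, 3 were lower and 6 higher, against 40.4% lower and 59.6% higher of all genes. The median was 0.13, and none passed the adjusted threshold. Atp1b1, a beta subunit of the Na,K-ATPase and so a relative of Atp4b, differed by 0.26, and the further beta subunits Atp1b2 and Atp1b3 by -0.41 and -0.04. Of the FXYD regulators, Fxyd5 differed by -0.57 (limma adjusted p = 0.287), and Fxyd1, Fxyd2, Fxyd3 and Fxyd6 lay between 0.10 and 0.39. Atp12a, the non-gastric proton pump, was not tested.

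Tmem45a, the tested paralog of Tmem45b, differed by 0.10 (SE 0.21, limma adjusted p = 0.838), and Tmem45a2 was well above background on no array. The decrease of Tmem45b thus stood beside a paralog with a difference smaller than its SE, although the difference between these genes was not tested.

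Other genes of the tissues for which Iapp and Atp4b are known were read in the same way. Shares over all tested genes were 40.4% lower and 59.6% higher, and at an unadjusted p under 0.05 they were 6.83% and 9.82%. Of 27 genes of islet hormones and neuroendocrine granules, 16 were tested, 6 were lower and 10 higher, and none passed the adjusted threshold. Ins2, an insulin gene, differed by 0.42 (limma adjusted p = 0.233) and Ins1 by 0.03, while the glucagon gene Gcg was not tested and Sst, Pdx1, Isl1 and Slc2a2 were well above background on no array. Nkx6-1, the beta cell factor, was among the 385 genes of the class of Iapp, with a floor fold of 1.07. Its nominal difference of -0.75 turned to 0.03 with normexp. Of 26 gastric gland genes, 13 were tested, 6 were lower and 7 higher, and none passed the adjusted threshold. At an unadjusted p under 0.05, Esrrg, a nuclear receptor of parietal cells, differed by -0.79 (limma adjusted p = 0.221). Gast, the gastrin gene, differed by a nominal -0.60 at that p (floor fold 1.37, 0.02 with normexp). Slc26a7, the basolateral chloride-bicarbonate exchanger of parietal cells, differed by 0.95 (limma adjusted p = 0.194), and Gkn3 by 0.44. The defining genes Gif (intrinsic factor), Tff1, Gkn1 and Gkn2 were well above background on no array.

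**Figure D4:**
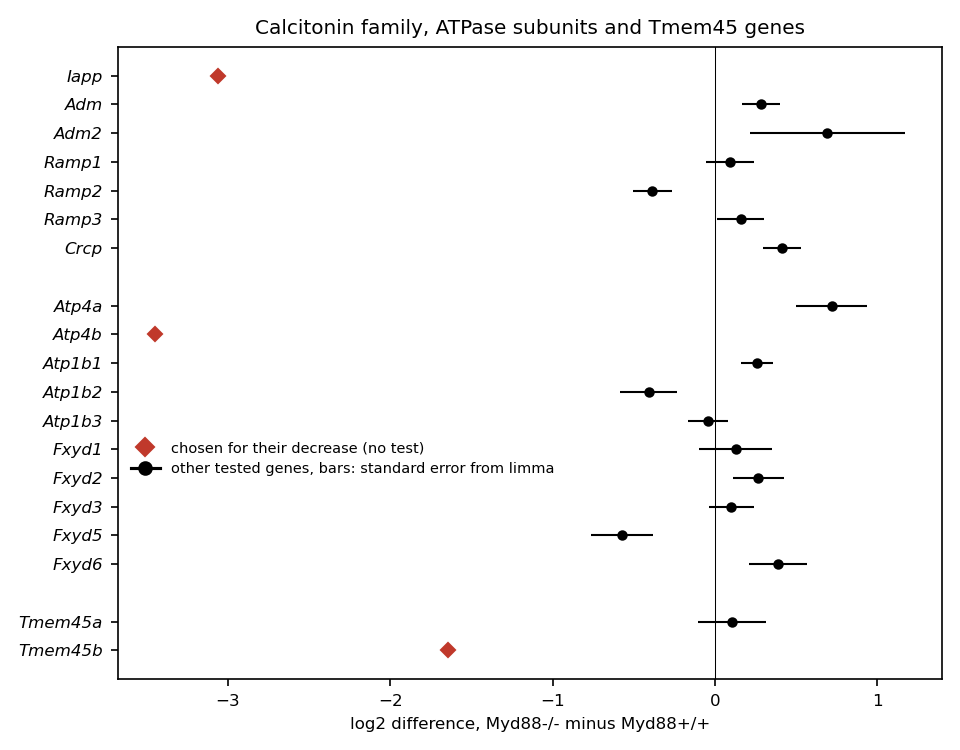
Log2 difference, Myd88-KO minus Wildtype (x axis), of the tested genes considered of the calcitonin family, the H,K-ATPase and Na,K-ATPase subunits and the Tmem45 family (y axis), with the SE of limma as bars for genes other than Iapp, Atp4b and Tmem45b, which carry none. Atp4b lies at -3.45 and its partner Atp4a at 0.72, on opposite sides of 0.

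The tested genes nearest to the 4 on their chromosomes were all well above background on the 4 arrays, as were 91.9% of all tested genes. None passed the adjusted threshold, and neither did any other tested gene. Genes that were not tested were passed over, so a closer gene may lie between. Iapp is flanked by Pyroxd1, 58.7 kb away by probe position with a difference of 0.34, and by the transporter gene Slco1a5, 69.4 kb away with -0.02. Next came Recql at 0.01 and Slco1a1 at 0.35. Atp4b is flanked by Tfdp1, a partner of the E2F factors, at 8.42 kb and -0.15, and by Fam70b at 69.8 kb and -0.18, with Tmco3 at -0.24 and Gas6 at 0.15 beyond them. Tmem45b lies 5.60 kb from Nfrkb, which differed by 0.17, and 44.8 kb from 4932433N03Rik at -0.34, and its neighbours on the other side are probes without a gene symbol. The nearest tested gene with a symbol to D130050E23Rik was Cox18, 455 kb away, at 0.09, and the bicarbonate transporter gene Slc4a4, 525 kb away, differed by -0.91 (limma adjusted p = 0.391).

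Within 1 Mb of the 4 genes, 19, 36, 22 and 10 other genes were tested around Iapp, Atp4b, Tmem45b and D130050E23Rik, and 7, 13, 6 and 3 of them were lower, against 40.4% lower and 59.6% higher of all genes. The lowest value in these windows, singled out after it was seen, was that of Gys2, which encodes the liver form of glycogen synthase and lies 119 kb from Iapp. Gys2 gave -3.11 and -1.20 on the Myd88-/- arrays and 0.30 and 0.75 on the Myd88+/+ arrays, a difference of -2.68 (SE 0.72, limma adjusted p = 0.245). Tmem45b is on chromosome 9 with Myd88, whose probe lies 88.0 Mb away at chr9:119245322-119245381.

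**Figure D5:**
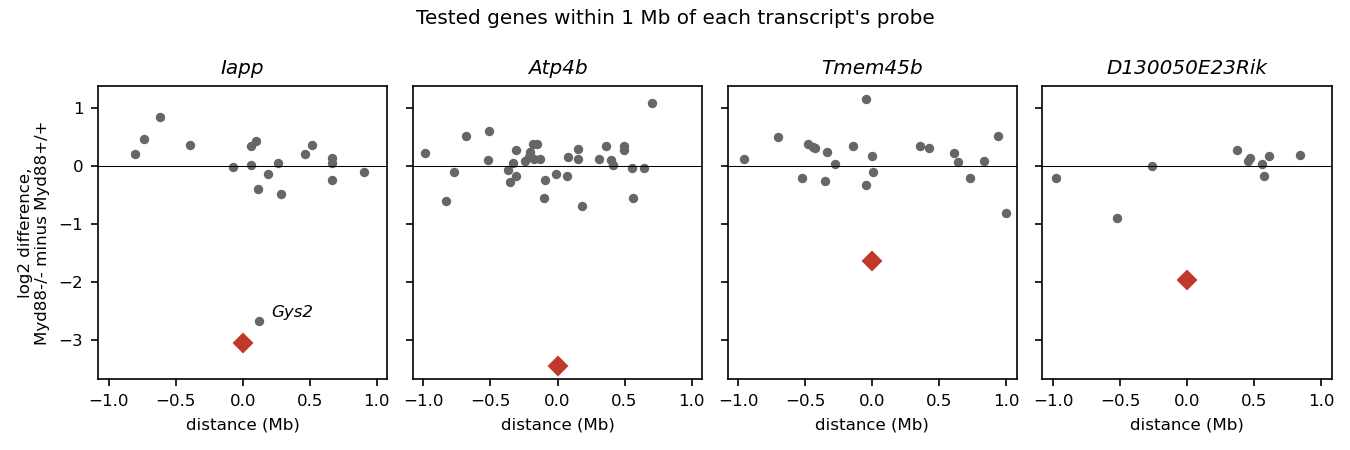
Log2 difference, Myd88-KO minus Wildtype (y axis), of tested genes within 1 Mb of each of the 4 genes against the distance between probes (x axis), with the gene itself at distance 0. The 4 genes were chosen for their low values, those of Iapp, Atp4b and D130050E23Rik are nominal, and most neighbours lie near 0, with Gys2 at -2.68 as the lowest.

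The profiles of the 4 genes over the arrays were compared after each was centred on its own mean, with the root mean square (RMS) difference over 4 arrays as the measure of likeness. These distances use the values that chose the genes, and for Iapp and Atp4b both knockout values are surrogates and for D130050E23Rik neither was well above background, so they describe the processed signals only. Iapp and Atp4b were nearest to each other, at 0.200, and Tmem45b and D130050E23Rik were 0.164 apart, while the other pairs lay between 0.556 and 0.911. After Atp4b, the genes nearest to Iapp were Mb, the myoglobin gene, at 0.278 and 4930579G24Rik at 0.324. Those nearest to Atp4b after Iapp were Slpi, which encodes a secreted inhibitor of leukocyte proteases, at 0.361 and Jakmip1 at 0.4003. Slpi was well above background on all 4 arrays, at -2.76 and -2.21 against 1.09 and 0.65. The genes nearest to Tmem45b were 2010003K11Rik at 0.0482, Cox17, a copper chaperone of cytochrome oxidase, at 0.0755 and Clec9a, a dendritic cell lectin, at 0.0772. D130050E23Rik lay nearest to Mcm5, a subunit of the replicative helicase, at 0.0889, then to Cox17 at 0.137 and AA388235 at 0.147. Several of these genes share with Iapp, Atp4b and D130050E23Rik that neither knockout array held them well above background.

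Markers of some other tissues were lower on the same arrays. Over all tested genes, 40.4% were lower on the Myd88-/- arrays, and 6.83% were lower at an unadjusted p under 0.05. The 11 tested submandibular acinar genes were bright. Their summed signal, in multiples of each array's 75th percentile, was 7167 and 7158 on the Myd88-/- arrays against 5094 and 5392. Of the brightest, Dcpp1 differed by 0.30 but by 0.003 with quantile normalization, and Smgc by 1.57 and 1.37. All 12 tested skeletal muscle genes were lower, each at an unadjusted p under 0.05 (median difference -3.78), and their summed signal was 3.08 and 3.14 against 23.1 and 130. Tnnc2, the fast-muscle troponin C gene, gave -2.44 and -2.23 against 2.26 and 5.04, and Myh4, a fast myosin gene, gave 2.47 and 5.06 on the Myd88+/+ arrays and was not well above background on the Myd88-/- arrays. For B cell genes, 8 of 8 tested were lower (median -3.57, range -6.40 to -0.33), with sums of 3.39 and 3.29 against 20.8 and 11.5. Ms4a1, which encodes CD20, had a floor fold of 28.5, while Cd22 and Cd79a, well above background on all 4 arrays, differed by -0.33 and -0.89. For T cell genes 9 of 9 were lower (median -2.84), with sums of 4.72 and 5.72 against 18.5 and 11.2. Lck, the kinase of the T cell receptor, differed by -3.06, while Cd3e, a chain of that receptor, differed by -0.06. No gene of these lists passed the adjusted threshold. The study's flow cytometry, on submandibular glands of male mice, found more B cells and plasma cells in the Myd88-/- glands, the other direction. Why the array signals and the cell counts differ was not tested.

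Of 9 parotid gland genes 8 were lower (median -2.03), against 40.4% of all tested genes. Their sums were 4781 and 2984 against 5929 and 5702, and Prb1, a proline-rich protein gene, gave 7.26 and 5.34 against 8.73 and 8.45. All 9 tested adipocyte genes were lower (median -0.76), with sums of 216 and 367 against 508 and 502, and Adipoq, the adiponectin gene, differed by -0.76. Leptin (Lep) was well above background on no array. The study's methods describe a dissection meant to take lymph nodes, connective tissue and fat off the glands.

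Of the Myd88+/+ arrays, the muscle sum was several times higher on array 2, where the scaled log2 signals of Iapp and Atp4b were also higher, by 0.22 and 0.36. Tmem45b and D130050E23Rik differed by 0.03 and 0.04 between these arrays, and the B and T cell sums were higher on array 1. Before scaling, the processed intensity of Iapp was not higher on array 2, at 35.4 on array 1 and 34.5 on array 2. That of Atp4b was 40.1 and 43.2. Of the Myd88-/- arrays, the parotid sum was lower on array 2 and the adipocyte sum on array 1, and Tmem45b gave -1.19 on array 1 and -1.14 on array 2. The median differences of the remaining lists were 0.35 for salivary duct, 0.34 for submandibular acinar, -0.06 for granular convoluted tubule, -0.06 for sublingual gland, -0.13 for Schwann cell, 0.28 for peripheral neuron, 0.04 for squamous epithelium and -0.01 for macrophage genes. Of 11 exocrine pancreas genes 4 were tested, with a median of -0.02. What part muscle, lymphoid, parotid or fat tissue had in the decrease of the 4 genes was not tested.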

How the data were processed

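RNA of SGs was hybridized to one-colour Agilent arrays, 2 for each genotype. The authors deposited each array's scanner output from Feature Extraction 10.7.3.1, in which the processed intensity is corrected for background and spatial trend, dim spots carry a surrogate and arrays are not scaled to each other. A table deposited for the whole series was set aside, since none of its 4 columns names a sample. The study's legends give a larger n than the labels.

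Intensities of 59305 non-control spots were put on the log2 scale, the 75th percentile of the array was subtracted, and outlier spots were dropped. Probes entered the test if both arrays of either genotype held them well above background, and each gene was read from its brightest such probe. The test was limma (version 3.58.1, R 4.3.3; lmFit, eBayes) without a block, with p-values adjusted by Benjamini-Hochberg over 22312 genes at a threshold of 0.05. Scripts were checked on simulated data. The number of arrays limits the precision.

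The 4 genes and all 19 gene lists were chosen with earlier results of these data known. The rule for naming genes took every tested gene of the 3 gene families (some are not reported here and were left out of the counts), from each other list up to 4 genes at an unadjusted p under 0.05 and the first 3 listed, the 3 nearest profiles and the nearest 2 tested neighbours on either side, of which the text gives those that bear on a result. Promoters came from RefSeq (GRCm38.p6). Another 17 settings of background, scaling, filter, test and samples were run, and 2 more were chosen after seeing the data.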

Additional observations from a re-analysis of the deposited data

How the results depend on the processing

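On processed signals the 4 differences kept their direction under every scaling and with each array left out in turn. With an array left out, they ranged from -3.17 to -2.95 for Iapp and from -3.63 to -3.27 for Atp4b. For Tmem45b that range was -1.67 to -1.62, and for D130050E23Rik it was -2.04 to -1.89. Normexp (offset 50) gave -0.42, -0.52, -1.26 and, reversed, 0.0094 in that order. Of the alternatives added after seeing the data, normexp with an offset of 10 gave -1.14, -1.24, -1.50 and -0.23, and normexp from negative control spots (offset 50) gave -0.44, -0.61, -1.26 and -0.065. An added offset by construction shrinks differences between dim spots. Quantile normalization gave -2.94 for Iapp and -1.73 for D130050E23Rik, cyclic loess -3.22, -1.69 and -2.13 for Iapp, Tmem45b and D130050E23Rik, and Tmem45b stood at -1.69 with the percentile over detected probes and -1.70 with median scaling. Requiring all 4 arrays well above background removed Iapp, Atp4b and D130050E23Rik. The number of genes past the adjusted threshold, 0 as reported, was 79 with normexp, 402 with median scaling, 482 with trended and robust moderation, 1 (Tmtc1) with the methods' t-test, and 0 with every array left out. Genes lower at an unadjusted p under 0.05 numbered 755 with median scaling, 926 with the methods' t-test and 560 to 1631 with an array left out (560, 1631, 970 and 923 without Myd88-/- array 1, Myd88-/- array 2, Myd88+/+ array 1 and Myd88+/+ array 2). Genes higher numbered 240 with median scaling, 1414 without the filter on dim probes and 432 to 1434 with an array left out (960, 1434, 1344 and 432 in the same order). In the family and tissue lists of the 4 genes, 5 genes were lower and 5 higher at that p, against 6.83% and 9.82% of all tested genes. The calcitonin, islet, ATPase, gastric and Tmem45 lists held 6, 16, 9, 13 and 1 tested genes, with Atp4a in both the ATPase and the gastric list. The lower count was 2 with quantile normalization, 1 with median scaling and 3 to 4 with an array left out (3 without either Myd88+/+ array), and the higher count was 8 with normexp, 3 with the percentile over detected probes, 0 with median scaling and 1 to 8 with an array left out (1, 8, 4 and 1 in the order above). Median scaling put 1 of them, Chia, past the adjusted threshold. The cause of these shifts was not tested. Same-numbered arrays tended to deviate in opposite directions (r = -0.373), so that Myd88-/- array 1 tended to go with Myd88+/+ array 2. Those arrays also had the lower share of probes well above background in their genotype, 52.2% and 55.1% against 68.4% and 74.2%. Nothing in the labels says that numbers pair the arrays. With the replicate number as a block, 0 genes passed the adjusted threshold, 1172 were lower and 1238 higher at the unadjusted p, and 2 listed genes were higher. The crossed pairing, added to see the reverse, gave 0, 1840 and 2317.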

Other observations

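Detection itself was uneven between the genotypes and also within each. Probes well above background were 52.2% and 68.4% on the Myd88-/- arrays and 74.2% and 55.1% on the Myd88+/+ arrays. Of all tested genes, 0.179% were well above background on both Myd88-/- arrays and neither Myd88+/+ array. Of the genes on the 5 family and 14 marker lists, those well above background on both Myd88+/+ arrays and neither Myd88-/- array, like Iapp, Atp4b and D130050E23Rik, were 4 of 12 tested skeletal muscle genes, 3 of 8 B cell genes, 1 of 16 islet genes (Nkx6-1) and 1 of 13 gastric genes (Gast), against 1.73% of all tested genes. The other 15 lists held none, the T cell, adipocyte and parotid gland lists included. Chia, the acidic chitinase that parietal, chief and salivary cells can make, was the lowest of the gastric list and stood at log2 signals of 7.77 and 5.46 on the Myd88-/- arrays and 8.86 and 8.52 on the Myd88+/+ arrays, a difference of -2.08 (limma adjusted p = 0.344). It was singled out after its values were seen.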
